A study of Solanum lycopersicum with 8 samples.

Results

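Solyc08g062340 and Solyc08g062450 are the 2 tomato genes listed for this work as cytosolic class II small heat shock proteins on chromosome 8, and they were taken by their IDs with the version suffix dropped. Both are present in all 8 libraries, among 29345 listed genes. Small heat shock proteins are chaperones that need no ATP and hold unfolding proteins so that they do not aggregate, until ATP-driven chaperones refold them. Class I and class II proteins of the plant cytosol assemble into separate oligomers, and under prolonged heat both are found in heat stress granules. HsfA2, a heat stress transcription factor, activates small heat shock protein genes, and a class II protein of tomato is known to bind HsfA2 and to hold it in these aggregates. Small heat shock proteins are also made without heat in developing pollen and seeds.

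The 8 libraries came from anthers and young leaves of 8-week-old plants of cv Moneymaker, either A2AS or wild type (WT), and either heat-stressed or control, with 1 library for each combination. A2AS is known from the study as a transgenic tomato in which HsfA2 is suppressed, and the labels give neither its construct nor the number of lines or plants behind a library. All plants were raised in a glasshouse with days of 16 h (24 °C) and nights of 8 h (20 °C). For heat stress, plants were transferred into a chamber with light of 120 μmol per square metre and second, held at 39 °C for 1 h and left to recover at 24 °C for 1.5 h. The labels do not say how control plants were handled, so heating and transfer to the chamber cannot be told apart. Anthers of different developmental stages were collected, and fewer cells of a type and less RNA per cell cannot be told apart in such bulk samples. The assay was massive analysis of cDNA ends (MACE), which counts tags from the last 500 bp of polyadenylated RNA. Levels are in tags per 1000000 of the library (CPM) and have no gene length term, because each transcript is represented by 1 tag.

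Heated A2AS leaf held 6243965 reads and the other 7 libraries 11534512 to 14764187. The 3 Rubisco small subunit genes, which mark leaf, summed to 1967 to 2776 CPM in anthers and to 13678 to 38082 CPM in leaves. LAT52, MS10 and MS32, which mark pollen and the tapetum, summed to 159 to 330 CPM in anthers and to 1.82 to 3.03 CPM in leaves. Their sum was 330 CPM in WT control anther and 159 CPM in heated WT anther. It was 164 CPM in A2AS control anther and 199 CPM in the heated anther library labelled A2AS. The part of this difference in the anther results was not tested. HsfA2 itself, the gene suppressed in A2AS, stood at 2.72 CPM in heated and 2.25 CPM in control A2AS leaf, against 21.7 CPM in heated and 10.3 CPM in control WT leaf. In anthers it was at 39.3 CPM in the heated library labelled A2AS and 1.08 CPM in A2AS control, against 22.3 CPM in heated and 1.93 CPM in control WT. The heated anther library labelled A2AS thus goes against its label, and each direction drawn from it below carries that limit.

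Both class II genes were abundant in heated plants of either tissue and lower in control plants. Solyc08g062340 stood at 1818 CPM in the heated anther library labelled A2AS and at 2133 CPM in heated WT anther. It stood at 273 CPM in heated A2AS leaf and at 539 CPM in heated WT leaf. In control plants it was at 17.2 CPM in A2AS anther and 13.1 CPM in WT anther, and at 15.5 CPM in A2AS leaf and 84.2 CPM in WT leaf. The 4 heated libraries therefore did not overlap with the 4 control libraries, and WT leaf stood above the other control libraries. The share of all genes that separate in this way was not counted, so the separation is a description of this gene only. Neighbours in the order of levels differed beyond counting error except in the lowest 3: A2AS anther was 1.11-fold (0.925 to 1.34) above A2AS leaf, which was 1.18-fold (0.954 to 1.45) above WT anther. Intervals in brackets are exact 95% intervals and cover counting error only, not the spread between plants, since no group has a replicate.

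Solyc08g062450 was lower than Solyc08g062340 in all 8 libraries. It stood at 608 CPM in the heated anther library labelled A2AS and at 633 CPM in heated WT anther. It was at 185 CPM in heated A2AS leaf and at 344 CPM in heated WT leaf. In control plants it was at 7.08 CPM in A2AS anther and 4.96 CPM in WT anther, and at 4.75 CPM in A2AS leaf and 38.8 CPM in WT leaf. From the highest level down, the first 6 libraries were the same as for Solyc08g062340, namely heated WT anther, heated anther labelled A2AS, heated WT leaf, heated A2AS leaf, WT control leaf and A2AS control anther, and the interval of the last step, from WT anther to A2AS leaf, included 1 (1.04-fold, 0.713 to 1.48). By rank, Solyc08g062340 was the 15th most abundant of the 29345 genes in the heated anther library labelled A2AS and the 16th in heated WT anther, and it was 7841st in WT control anther. Solyc08g062450 reached ranks 105 and 96 in these heated libraries. In heated WT leaf the ranks of Solyc08g062340 and Solyc08g062450 were 138 and 262.

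**Figure D1:**
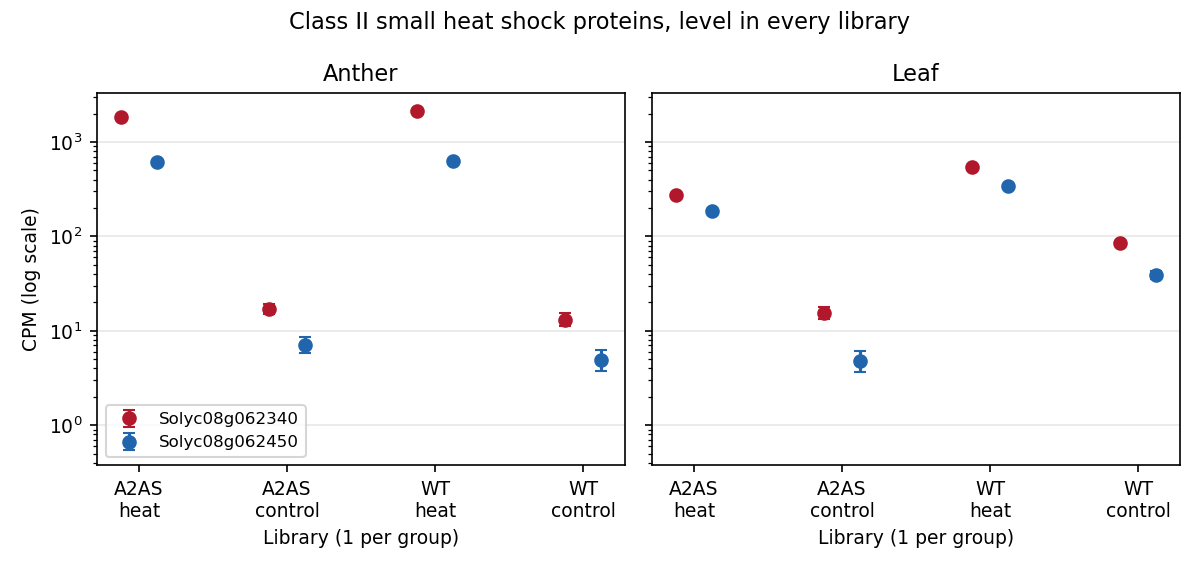
Level of both class II genes in each of the 8 libraries, in CPM on a log scale, with anthers left and leaves right. Bars are exact 95% counting intervals. Heated libraries lie between 185 and 2133 CPM and control libraries between 4.75 and 84.2 CPM. The share of all genes that separate in this way was not counted.

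Heat was followed by higher levels of both genes in all 4 pairs of heated and control libraries, and the ratio was wider in anthers. In the anther libraries labelled A2AS, Solyc08g062340 was 106-fold (93.4 to 120) and Solyc08g062450 85.9-fold (70.5 to 105) higher in the heated one. In WT anthers the folds were 163 (139 to 191) and 128 (100.2 to 169). In A2AS leaf they were 17.6 (15.3 to 20.5) and 39.0 (30.2 to 50.4), and in WT leaf 6.40 (5.99 to 6.86) and 8.86 (8.03 to 9.77). Solyc08g062450 had the wider ratio in leaf of both genotypes, and Solyc08g062340 in anthers of both genotypes. As a background, among genes averaging 10 CPM or more in the pair, 2.22% were 2-fold or more higher in the heated library in the anther pair labelled A2AS, on the log2(CPM + 1) scale. This share was 2.55% in WT anthers, 2.64% in A2AS leaf and 4.01% in WT leaf. In leaf the wider ratios of A2AS went with smaller differences in amount: Solyc08g062340 was higher after heat by 257 CPM in A2AS and by 455 CPM in WT. Solyc08g062450 was higher by 181 CPM in A2AS and by 305 CPM in WT.

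Over the 4 pairs both genes rose. Solyc08g062340 rose by 5.15 ± 0.73 log2 (SE; limma adjusted p = 0.0248 over all 15220 genes tested) and Solyc08g062450 by 5.28 ± 0.55 (limma adjusted p = 0.0102), each higher in 4 of 4 pairs. The background of genes called higher in this test was 1.87%. The residual here is how the response varies over tissues and genotypes, not a spread between replicate plants. The call ended for both genes when no expression minimum was set (limma adjusted p = 0.124 for Solyc08g062340 and 0.0812 for Solyc08g062450) and without the A2AS leaf pair (0.102 and 0.0752). For Solyc08g062340 it also ended without the A2AS anther pair (limma adjusted p = 0.0642).

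Among the other 10 listed small heat shock proteins, 6 of class I and 4 outside classes I and II, all 10 also rose in this test, with a median of 4.99 log2 against 0.06 over all genes. With 1 pair left out the number called among these 10 was 3 to 8, the lowest being without the A2AS leaf pair. HSP101, a disaggregase that works with small heat shock proteins, rose by 3.24 ± 0.42 log2 (limma adjusted p = 0.0194). Of 7 listed HSP70 genes, whose products refold proteins handed on by small heat shock proteins, 3 rose and Solyc11g066060 fell by 1.85 log2 (limma adjusted p = 0.00244), and of 4 HSP90 genes 2 rose. Of 5 listed Hsf genes none was called by limma, while 4 had an unadjusted p under 0.05, as did 3598 of the 15220 genes tested. The difference of HsfA2 was 2.12 ± 0.63 log2 (limma adjusted p = 0.119). Membership and names of these lists rest on published tomato nomenclature, since the files give IDs only.

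Solyc08g062340 placed higher in the family in anthers than in leaf by heat ratio and by heated level, but not by control level. The heat-ratio places of Solyc08g062450 in leaf lay on both sides of those in anthers. By heat ratio, Solyc08g062340 was 4th of the 12 small heat shock proteins in the anther libraries labelled A2AS and 3rd in WT anthers, but 11th in A2AS leaf and 9th in WT leaf. Solyc08g062450 was 6th, 6th, 4th and 8th in the same pairs. Class I genes ranged from 55.0-fold (Solyc06g076570) to 383-fold (Solyc06g076540) in WT anthers. The ratio of Solyc06g076540 rests on a control level of 0.980 CPM and has an interval of 222 to 752. In WT leaf the class I genes ranged from 4.65-fold (Solyc09g015020) to 16.0-fold (Solyc06g076520). Outside classes I and II, Solyc05g014280 had the narrowest ratio of the family in WT anthers (5.02-fold) and the widest in WT leaf (30.5-fold). By level, Solyc08g062340 was the most abundant of the 12 in both heated anther libraries and 8th in both heated leaf libraries. Solyc08g062450 was 9th in both heated anther libraries and 10th in both heated leaf libraries. In control libraries Solyc08g062340 was 6th in anthers of both genotypes, 5th in A2AS leaf and 4th in WT leaf. Solyc08g062450 was 10th in these control libraries except WT leaf, where it was 11th.

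**Figure D2:**
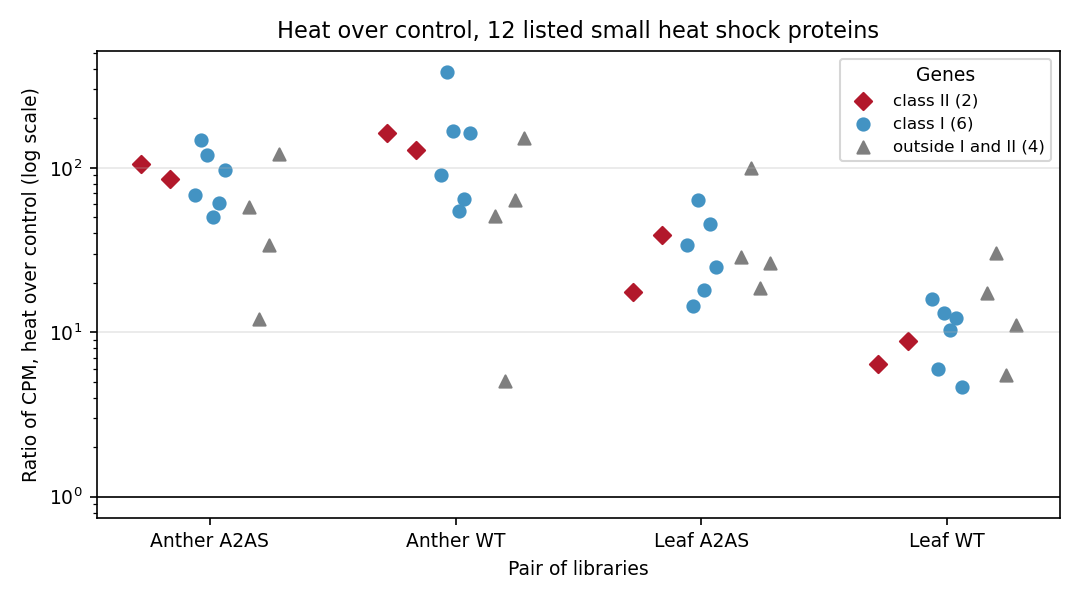
Ratio of CPM in the heated over the control library for the 12 listed small heat shock proteins in each of the 4 pairs, on a log scale. Each point is 1 gene. The class II genes lie at 85.9 to 163 in anthers and at 6.40 to 39.0 in leaf.

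The difference of the heat response between tissues was tested with just 2 genotypes to repeat it. The heat ratio of Solyc08g062340 was larger in anthers, the difference from leaf being 3.58 ± 0.45 log2 (SE; limma adjusted p = 0.0379), against a background of 0.361% of genes called in this direction. For Solyc08g062450 the difference was 2.42 ± 0.58 log2 and missed the threshold (limma adjusted p = 0.128). Of the 10 other small heat shock proteins 3 were called with the larger ratio in anthers (Solyc06g076540, Solyc06g076570 and Solyc11g020330), and 9 of 10 had a positive difference (median 2.06 log2 against 0.00 over all genes). The test rests on few libraries. The call of Solyc08g062340 ended with no expression minimum (limma adjusted p = 0.204). It also ended with the reads of both genes summed (3.25 log2, limma adjusted p = 0.0553). The difference of Solyc08g062340 was 2.89 log2 without the WT leaf pair and 4.28 log2 without the A2AS leaf pair. Without the WT anther pair it was 3.29 log2, and without the A2AS anther pair 3.88 log2. The difference of Solyc08g062450 was 1.47 and 3.37 log2 without these leaf pairs, and 2.17 and 2.67 log2 without these anther pairs. The residual of each such fit comes from the pairs of 1 tissue alone, so no call was read from these fits.

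Anthers and leaves of the same genotype and treatment differed in opposite directions before and after heat in WT. In WT control plants Solyc08g062340 was 6.43-fold (5.42 to 7.61) and Solyc08g062450 7.83-fold (6.04 to 10.5) lower in anther than in leaf, where 19.4% of genes reached 2-fold in this direction. In heated WT plants the anther level was higher, by a ratio of 3.95 (3.85 to 4.06) for Solyc08g062340 and 1.84 (1.78 to 1.91) for Solyc08g062450, against a background of 16.8%. In A2AS control plants the ratios of anther to leaf were 1.11 (0.925 to 1.34) and 1.49 (1.08 to 2.05), against a background of 26%. After heat, in the libraries labelled A2AS, they were 6.67 (6.35 to 7.004) and 3.28 (3.08 to 3.49), against a background of 25.9%. In heated WT plants 91.5% of genes had a lower ratio of anther to leaf than Solyc08g062340, and 80.9% a lower one than Solyc08g062450. The A2AS control ratio of Solyc08g062340 turned to 0.823, lower in anther, under median-ratio scaling of the libraries.

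In leaf, both class II genes were lower in A2AS than in WT, with the wider gap in control plants. Solyc08g062340 stood at 15.5 CPM in A2AS control leaf against 84.2 CPM in WT control leaf, 5.44-fold (4.70 to 6.35) lower. Solyc08g062450 stood at 4.75 CPM in A2AS against 38.8 CPM in WT, 8.17-fold (6.26 to 10.7) lower, against a background of 2.76% of genes reaching 2-fold in this direction. The Rubisco small subunit genes also differed between these leaves, summing to 31992 CPM in heated and 38082 CPM in control A2AS leaf, against 13678 CPM in heated and 23593 CPM in control WT leaf, and their part in the result was not tested. After heat the class II genes were at 273 and 185 CPM in A2AS leaf against 539 and 344 CPM in WT leaf, 1.98-fold (1.88 to 2.09) and 1.85-fold (1.74 to 1.98) lower. Neither reached 2-fold, and 6.51% of genes did so in this direction. All genes tested had a median below 0 in these pairs too, at −0.32 log2 in heated and −0.21 log2 in control leaf, and near 0 under median-ratio scaling (−0.015 in heated and −0.0024 in control leaf). Under that scaling the ratios in heated leaf were 0.631 and 0.673. Of the 10 other small heat shock proteins, 4 passed 2-fold in the same direction after heat and 10 before it, and under median-ratio scaling 2 did so after heat and 10 before it.

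In anthers the genotype ratios were close to 1 and lay on opposite sides of it before and after heat. In control anthers Solyc08g062340 was 1.31-fold (1.07 to 1.60) and Solyc08g062450 1.43-fold (1.05 to 2.02) higher in A2AS, against a background of 0.695% of genes at 2-fold. In the heated anther library labelled A2AS they were 1.17-fold (1.15 to 1.19) and 1.04-fold (1.01 to 1.07) lower than in WT, against a background of 1.37%. HsfA2 had a ratio of 1.76 (1.53 to 2.03) in that heated pair and of 0.560 (0.278 to 1.10) in the control pair. Among the other 10 small heat shock proteins none was 2-fold different in either anther pair, with ratios from 0.817 to 2.18 in control and 0.841 to 1.95 in heated anthers. Few genes of any kind were: of 9213 genes averaging 10 CPM or more, 64 were higher and 122 lower in A2AS control anther. In the heated pair 87 were higher and 130 lower of 9476. The ratio of 2.18 was that of Solyc06g076540, which stood at 2.13 CPM in A2AS against 0.980 CPM in WT and stayed under 2-fold on the log2(CPM + 1) scale.

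**Figure D3:**
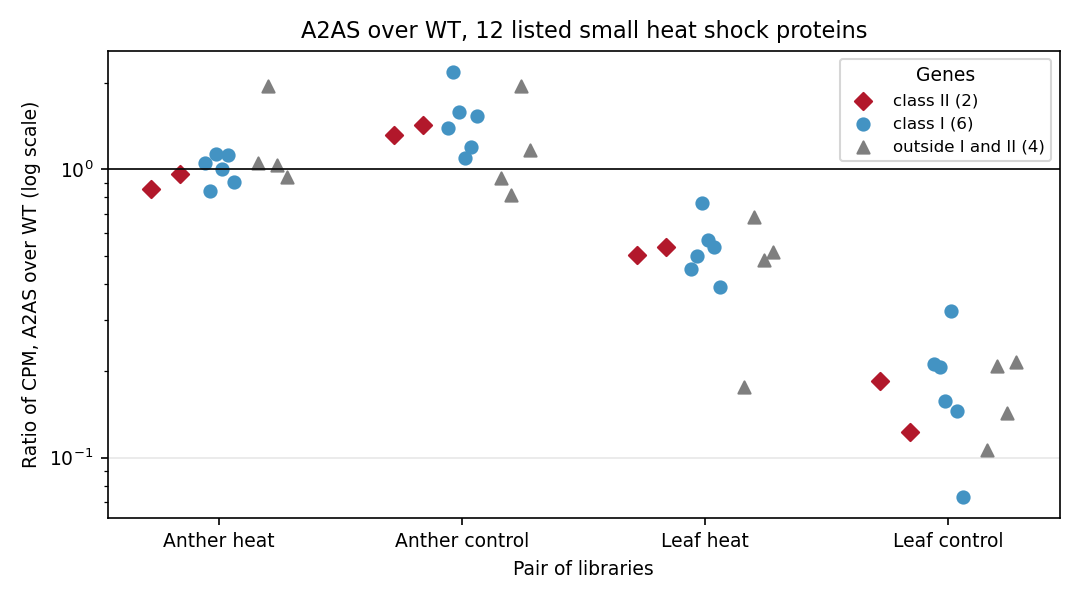
Ratio of CPM in A2AS over WT for the 12 listed small heat shock proteins in each of the 4 pairs of libraries, on a log scale. Each point is 1 gene. The class II genes lie at 0.122 and 0.184 in unheated leaf, 0.506 and 0.539 in heated leaf, and between 0.852 and 1.43 in anthers.

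Over the 4 genotype pairs neither gene was called for A2AS by limma. Solyc08g062340 differed by −0.80 ± 0.38 log2 (SE; limma adjusted p = 0.603) and Solyc08g062450 by −0.82 ± 0.45 (limma adjusted p = 0.614), each lower in A2AS in 3 of 4 pairs. Without the control leaf pair the differences were −0.28 and −0.17 log2, and without the control anther pair −1.19 and −1.25 log2. Without the heated anther pair, whose A2AS library goes against its label, they were −0.995 and −1.08 log2. The background was 0% of genes called lower, and 1313 of 15220 genes had an unadjusted p under 0.05 in either direction. The A2AS ratio in anther minus that in leaf was 1.74 ± 0.45 log2 for Solyc08g062340 (limma adjusted p = 0.0754) and 2.03 ± 0.58 log2 for Solyc08g062450 (limma adjusted p = 0.0878). Neither passed, against 2.01% of genes called in that direction and a median of all genes of 0.28 log2, which became −0.02 under median-ratio scaling. Of the 10 other small heat shock proteins 2 were called (Solyc03g082420 and Solyc06g076520), and all 10 had a positive difference. Without the control anther pair the tissue differences were 1.45 log2 for Solyc08g062340 and 1.78 log2 for Solyc08g062450, and without the heated one 2.04 and 2.28 log2. The residual then comes from the leaf pairs alone, so no call was read from these fits.

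No difference of the heat ratio between genotypes was called, and its direction was not the same in the tissues. The difference, A2AS minus WT, was 0.40 ± 1.61 log2 for Solyc08g062340 and 0.70 ± 1.17 for Solyc08g062450 (limma adjusted p = 1.00 for both), with 0% of genes called by limma and 228 of 15220 at an unadjusted p under 0.05. In leaf the ratio was larger in A2AS for both genes, at 17.6-fold against 6.40-fold in WT for Solyc08g062340 and 39.0-fold against 8.86-fold for Solyc08g062450. In anthers it was smaller in the libraries labelled A2AS, at 106-fold against 163-fold and 85.9-fold against 128-fold. The larger leaf ratio in A2AS went with a lower control level, and the level after heat was lower in A2AS leaf than in WT leaf for both genes.

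The genes did not keep a fixed proportion to each other. In the anther libraries labelled A2AS, Solyc08g062340 made up 74.9% (74.5 to 75.4) of the reads of both genes after heat, against 70.8% (65.7 to 75.6) in control. In WT anthers the share was 77.1% (76.7 to 77.5) after heat, against 72.5% (66.0 to 78.5) in control. In A2AS leaf it was 59.5% (57.7 to 61.4) after heat, against 76.5% (70.9 to 81.5) in control. In WT leaf it was 61.1% (60.2 to 61.9) after heat, against 68.5% (65.9 to 70.9) in control. The share was thus lower after heat in both leaf pairs, with intervals that did not overlap, and higher in both anther pairs, where the intervals overlapped. The highest share was that of heated WT anther, and the lowest that of heated A2AS leaf. Neither place was resolved beyond counting error. The interval of heated WT anther overlapped those of WT control anther and A2AS control leaf, and the heated leaf intervals overlapped each other. The change of the share with heat averaged 4.35 percentage points in the 2 anther pairs and −12.2 in the 2 leaf pairs (exact permutation test over pairs, two-sided p = 0.333). That is the smallest p that 2 pairs against 2 can give, so the design cannot reach the threshold.

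Counts of both genes were uncertain in the same way. Turned back into reads, the values of both genes ended in 0.5 of a read in 6 libraries and were whole in the other 2, and their sum was whole in all 8 (within 0.002 of a read). The treatment of reads that match more than 1 gene is not stated, so the split between the genes is less certain than their sum. In the libraries labelled A2AS the class II genes summed to 2426 CPM in heated anther against 24.2 CPM in control, and to 458 CPM in heated leaf against 20.2 CPM in control. In WT the sums were 2766 CPM in heated anther against 18.0 CPM in control (153-fold, 134 to 176), and 883 CPM in heated leaf against 123 CPM in control (7.18-fold, 6.79 to 7.59). Over the 4 pairs the sum rose by 5.26 ± 0.68 log2 (limma adjusted p = 0.0189).

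**Figure D4:**
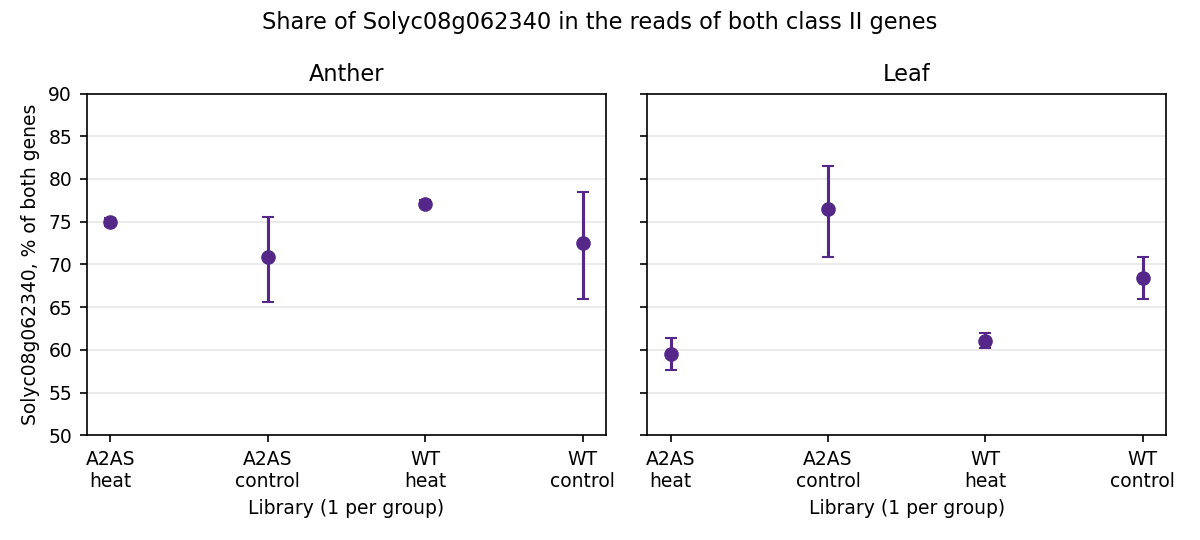
Reads of Solyc08g062340 as a percent of the reads of both class II genes in each library, with anthers left and leaves right. Bars are exact 95% counting intervals, and the axis runs from 50% to 90%. After heat the share is 74.9% and 77.1% in anthers and 59.5% and 61.1% in leaf.

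Class II genes took similar shares of the family in control libraries and different ones after heat. In the 4 control libraries their sum was 11.8% to 12.7% of the reads of all 12 small heat shock proteins. After heat it was 19.2% (19.0 to 19.4) in the anther library labelled A2AS and 21.8% (21.6 to 22.0) in WT anther, but 8.23% (7.95 to 8.53) in A2AS leaf and 6.87% (6.75 to 6.99) in WT leaf. The whole family summed to 12618 CPM in the heated anther library labelled A2AS and 12682 CPM in heated WT anther. In heated leaf it summed to 5562 CPM in A2AS and 12859 CPM in WT. Class I genes held 40.1% to 50.2% of the family in the 8 libraries. The share of class II in heated WT leaf depends on Solyc03g082420, the most abundant gene of the family over all libraries, which stood at 4221 CPM in heated WT leaf. Without it class II held 9.50% in heated A2AS leaf and 10.2% in heated WT leaf, and 24.4% in heated WT anther.

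The pattern of both genes over the 8 libraries was close to that of other heat-raised genes. Likeness was Pearson's r of log2(CPM + 1) over the 8 libraries, among genes averaging 10 CPM or more, and is a description only, since the heated and control libraries lie far apart. The gene most like Solyc08g062340 was Solyc11g020330, a small heat shock protein outside classes I and II, with r = 0.997. It was followed by Solyc01g102960, which the files do not name, also with r = 0.997. The genes in places 3 and 4 were outside the lists and are not named here. Solyc08g062450 came 5th, with r = 0.990. For Solyc08g062450 the closest was Solyc11g005920, unnamed in the files, with r = 0.998, although its levels spanned only 21.6 to 71.1 CPM. Then came Solyc01g102960 (r = 0.996), the class I gene Solyc06g076570 (0.995), the HSP70 gene Solyc03g117630 (0.995) and the class I gene Solyc06g076560 (0.994). HsfA2 was 98th for Solyc08g062340 (r = 0.882) and 149th for Solyc08g062450 (r = 0.852), of 9440 genes compared.

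Of the genes with nearby IDs, most stayed at low levels. Tomato IDs are numbered along the chromosome, and 20 other listed genes fell between Solyc08g062240 and Solyc08g062550, 5 of them between the class II genes. Of these 20 genes, 17 stayed under 10 CPM in all libraries, with 7.06 CPM as their highest level, and their heat ratios are not given here. Solyc08g062420, which lies between the class II genes, ranged from 14.2 to 32.6 CPM, with heat ratios of 1.07 to 1.16 in the 4 pairs. Solyc08g062500 ranged from 9.15 to 19.8 CPM, with heat ratios of 1.13 to 1.63. Solyc08g062330, next to Solyc08g062340 by number, had heat ratios of 1.84 in A2AS leaf and 2.60 in WT leaf, and of 0.424 in the anther libraries labelled A2AS and 0.904 in WT anthers, with no level above 11.5 CPM.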

How the data were processed

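Total RNA of 8 groups with 1 library each was sequenced by MACE. For each library the authors deposited CPM values (tags per 1000000, called TPM in the tables), with no length term. Per the submitters' processing notes FastQC was used, with aligner, counting method, build, annotation and strand not given in the sources used here. In every table the most frequent low value was taken as 1 read, which gave library sizes; 77.6% to 83.9% of values above 0 were whole reads within 0.001, too few for a count test. Reads were rounded for exact (Clopper-Pearson or Poisson) 95% intervals.

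Ratios are of CPM values. Counts of genes at 2-fold use log2(CPM + 1) and a pair mean of at least 10 CPM. limma 3.58.1 (R 4.3.3) was fitted to log2(CPM + 1) where a gene averaged 2 CPM or more, with variances following the mean, the pair as a block and Benjamini-Hochberg adjustment at 0.05 over all genes. The fit was tested on simulated data. Alternatives were other pseudocounts, minima and scaling, each pair left out and, chosen after seeing the data, both genes summed.

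The members and lists were chosen with earlier results of these data known. The genes named were both members first, the widest ratios of the other small heat shock proteins, HsfA2 and HSP101. Genes among the 5 most alike by r and neighbours by ID were also named. The reference gene table (41476 rows) has no ID of this form, so no position or sequence is given. An exact permutation test of the share of Solyc08g062340 was added after seeing the data. Solyc08g062330, Solyc08g062500, Solyc03g082420 and the range of Solyc11g005920 were described after their values were seen.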

Additional observations from a re-analysis of the deposited data

Results flagged for a closer look

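The heat ratio of Solyc08g062340 differed between the tissues: in anthers it was larger, by 3.58 log2 (limma adjusted p = 0.0379). The share of Solyc08g062340 in the reads of both class II genes moved in opposite directions in the tissues, but the anther rises were not resolved beyond counting error. It was higher after heat by 4.13 percentage points in the anther libraries labelled A2AS and by 4.57 in WT anthers. The counting intervals of the heated and control libraries overlapped in both anther pairs. In A2AS leaf the share fell by 17.0 percentage points, and in WT leaf it fell by 7.39 percentage points. The leaf intervals did not overlap. The treatment of reads that match both genes is not stated, and the intervals of the share do not cover it. The difference in share had an exact two-sided permutation p of 0.333, the smallest that 2 pairs against 2 can give.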

How the results depend on the processing

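No paired analysis was possible because no group has more than 1 library and the labels carry no replicate numbers; the blocks above are pairs of groups. Both class II genes kept their direction under all alternatives of the heat test, the A2AS test and both differences between tissues. With no expression minimum the heat differences of 5.15 (Solyc08g062340) and 5.28 log2 (Solyc08g062450) and the tissue difference of 3.58 log2 were no longer called, and limma called 51, 0 and 0 genes for heat, its tissue difference and the tissue difference of A2AS. With a pseudocount of 5 it called 255 genes for heat and 168 for the tissue difference of A2AS, and with a mean of at least 10 CPM 853 for the last. With both genes summed the tissue difference was 3.25 log2 and not called. The causes were not tested.

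With 1 pair left out, the heat differences ranged from 4.45 to 5.98 log2 for Solyc08g062340 and from 4.79 to 5.996 for Solyc08g062450, with 56 to 131 genes called against 399. Those for A2AS ranged from −1.19 to −0.28 and from −1.25 to −0.17, with 0 genes called each time. The tissue difference of the heat ratio ranged from 2.89 to 4.28 and from 1.47 to 3.37, with 0 to 668 genes called against 145. That of the A2AS ratio ranged from 1.05 to 2.44 and from 1.08 to 2.98, with 0 to 1138 called against 464. The difference of the heat ratio between genotypes turned negative without the WT leaf pair (−1.89 for Solyc08g062340, −1.11 for Solyc08g062450) and, for Solyc08g062340, without the A2AS anther pair (−0.90). It ranged up to 2.69 and 2.51.

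Median-ratio scaling moved 12 of the 24 pair ratios beyond their counting intervals. For Solyc08g062340 and Solyc08g062450 it gave 5.69 and 7.87 for heat in WT leaf and 0.631 and 0.673 for A2AS over WT in heated leaf. It gave 0.807 and 0.908 for A2AS over WT in heated anthers, 3.72 and 1.73 for anther over leaf in heated WT, and 4.76 and 2.34 in the heated libraries labelled A2AS. For Solyc08g062340 alone it gave 0.213 for A2AS over WT in control leaf and 0.823 for anther over leaf in A2AS control.

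At 4-fold, genes higher after heat numbered 83 and 78 in A2AS and WT anthers and 61 and 80 in A2AS and WT leaf; with no minimum they numbered 394, 410, 404 and 636. Genes lower in A2AS numbered 38 in heated and 42 in control leaf at 4-fold (1036 and 418 with no minimum). In anthers 6 were lower in A2AS after heat and 1 was higher in control (236 and 124). Between tissues 875 were lower in WT control anther, and 807, 875 and 764 higher in heated WT, A2AS control and heated A2AS anther (3133, 3672, 4825 and 4997). Without Solyc03g082420 the class II share of the family was 14.3% in each control anther, 21.6% and 24.4% in heated A2AS and WT anther, 15.2% and 16.9% in control A2AS and WT leaf, and 9.50% and 10.2% in heated ones. The control levels of the class II genes rest on 61 to 971 reads.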
